A study of Homo sapiens with 9 samples.

Results

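The mitochondrial genome is a small circular DNA with its own set of genes, and this account describes its transcripts in the C28/I2 line, which derives from human costal cartilage and was immortalised. Members were taken by position alone, as every gene that the files place on chromosome MT, and no measured value entered the choice. There were 37 such genes of 60671 in the files, namely 13 messenger RNA genes, 2 ribosomal RNA genes and 22 transfer RNA genes. Nuclear copies of mitochondrial genes were not members. The 9 RNA-seq libraries fell into 3 groups of 3, named by treatment as CA2 shRNA, Scrambled and Control. CA2 shRNA cells were transduced with a short hairpin RNA against CA2, the gene of carbonic anhydrase 2, an enzyme that interconverts carbon dioxide and bicarbonate. The labels describe neither the Scrambled construct nor whether Control cells were transduced, and they name no clone, dose or time. All groups share the same cell line. Since the labels do not call the libraries of a group separate cultures, the p-values cover only the spread seen between these 9 libraries, and that spread may be technical.

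Both strands of the mitochondrial genome are transcribed into long precursors, which are cut mostly at the transfer RNAs that lie between the other genes. The 13 messenger RNAs encode subunits of respiratory complexes I, III, IV and V, which otherwise consist of nuclear-encoded proteins made in the cytosol. The ribosomal and transfer RNAs serve the mitochondrion's own translation. Cartilage cells live with little oxygen and are known to rely largely on glycolysis.

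The sequences that follow are from GRCh38 and are shown because they mark where the counts of transfer RNA genes were concentrated and where genes share bases. The first 4 are the transfer RNA genes that held 91.9% of all transfer RNA counts, printed 5′ to 3′ on their own strand, which is the minus strand for all 4. Capitals mark the 7 bases at each end that face each other in the acceptor stem of the folded molecule, in which 7 of 7 positions could pair in each gene when a G–T pair was allowed.
MT-TP, proline, MT:15956-16023: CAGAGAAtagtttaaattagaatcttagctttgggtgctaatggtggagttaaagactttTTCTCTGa
MT-TN, asparagine, MT:5657-5729: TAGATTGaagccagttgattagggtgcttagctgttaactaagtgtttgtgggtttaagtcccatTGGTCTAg
MT-TC, cysteine, MT:5761-5826: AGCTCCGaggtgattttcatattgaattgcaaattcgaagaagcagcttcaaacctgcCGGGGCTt
MT-TY, tyrosine, MT:5826-5891: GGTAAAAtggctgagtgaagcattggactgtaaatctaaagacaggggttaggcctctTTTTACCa
The other 2 are plus-strand stretches around 2 overlaps of neighbouring messenger RNA genes, with the shared bases in capitals. MT-ATP8 and MT-ATP6 share 46 bases, and MT-ND4L and MT-ND4 share 7. MT-ATP6 and MT-CO3 also share the base at MT:9207, which is not printed.
End of MT-ATP8 and start of MT-ATP6, MT:8473-8572: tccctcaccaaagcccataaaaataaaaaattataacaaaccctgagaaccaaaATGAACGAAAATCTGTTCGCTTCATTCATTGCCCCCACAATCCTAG
End of MT-ND4L and start of MT-ND4, MT:10707-10766: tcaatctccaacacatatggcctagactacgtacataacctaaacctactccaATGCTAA
In the annotation 6 of the 13 messenger RNA genes end in an incomplete last codon, 5 of them with T and 1 with TA, and such a stop codon is known to be completed by the poly(A) tail. MT-ND6, the one messenger RNA gene on the minus strand, is 35.6% G and 7.05% C on its own strand, whereas the other 12 are 6.28 to 16.2% G and 29.5 to 36.0% C.

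Library totals ran from 16994368 to 34261244 counts. CA2 itself was lower in CA2 shRNA libraries, with 28, 15 and 30 counts, against 41, 53 and 61 counts in Scrambled and 55, 41 and 66 counts in Control libraries. Its log2 change was -0.77 against Scrambled and -0.86 against Control (edgeR's quasi-likelihood test, Benjamini-Hochberg adjusted p = 0.0276 and 0.0159). The chondrocyte label was met in part: the cartilage transcription factor SOX9 had a mean of 104 CPM (counts scaled to the library total) in CA2 shRNA, 90.7 in Scrambled and 90.6 in Control libraries after TMM scaling, which evens out differences in library composition, but 6 of 15 chondrocyte markers reached a mean of 1 CPM and COL9A1 had no count in any library. The cartilage matrix genes COL2A1 and ACAN were low, at 1.41 to 2.23 and 0.406 to 1.16 CPM across libraries. Immune markers summed to 3.09 CPM or less and endothelial markers to 4.91 CPM or less in every library, while summed epithelial markers stood at 385 to 425 CPM in CA2 shRNA, 337 to 366 in Scrambled and 347 to 366 in Control libraries. Summed neural markers stood at 38.1 to 41.2 CPM in CA2 shRNA, 45.5 to 50.1 in Scrambled and 44.4 to 45.7 in Control libraries. Summed fibroblast-like markers, led by FN1 and COL1A1, stood at 6406 to 6857 CPM in CA2 shRNA, 8891 to 9326 in Scrambled and 9009 to 9795 in Control libraries. The part of any of these marker lists in the results was not tested. By counts over all tested genes, the mitochondrial ones included, a pair of libraries stood apart from their groups. Counts of Scrambled 2 and Control 3 differed by a chi-square of 3.72 per gene, whereas Scrambled 2 differed from the others of its group by 19.3 and 17.9 and Control 3 from those of its group by 14.4 and 8.03. Because of this, results for mitochondrial genes are also given without both of them, a choice made after the data had been seen. The chi-square weighs heavily counted genes most, mitochondrial ones among them, so this choice drew partly on the members' own values. Over nuclear genes alone, mean correlation with the own group was 0.9904, 0.9901 and 0.9925 in Scrambled and 0.9908, 0.9921 and 0.9918 in Control. On the second principal component of those genes, Scrambled 2 (-20.5), Control 3 (-29.5) and Control 2 (-14.4) lay opposite the others of both groups (12.9 to 25.8).

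Mitochondrial transcripts took 4.06 to 6.86% of the counts of a library, almost all of it as messenger RNA, and the 3 groups overlapped. Summed messenger RNA was 66151, 55939 and 55360 CPM in CA2 shRNA, 62358, 40637 and 68532 CPM in the Scrambled libraries, and 59454, 58447 and 40476 CPM in Control libraries. The lowest values were those of Control 3 and Scrambled 2. The mean share was 5.92% ± 0.607 in CA2 shRNA, 5.72% ± 1.47 in Scrambled and 5.28% ± 1.07 in Control libraries (SD, n = 3 each). Differences between groups were within this spread, with a two-sided exact permutation p of 0.90 for CA2 shRNA against Scrambled, 0.60 for CA2 shRNA against Control and 0.50 for Scrambled against Control. With 3 libraries against 3, such a test cannot go below 0.10. Counting error was small beside the spread: Wilson 95% intervals of the total share reached 0.0109 percentage points or less to either side, which covers counting error only. In bulk RNA, fewer mitochondria or mitochondrial genomes per cell and less RNA from each cannot be told apart. In the same libraries NEAT1, a long RNA retained in the nucleus, had 529, 259 and 371 CPM in CA2 shRNA, 622, 234 and 644 CPM in the Scrambled libraries, and 682, 309 and 158 CPM in Control libraries. Scrambled 2 and Control 3 were thus lowest of their groups in NEAT1 as well, and whether RNA recovery or handling differed in them was not tested.

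**Figure D1:**
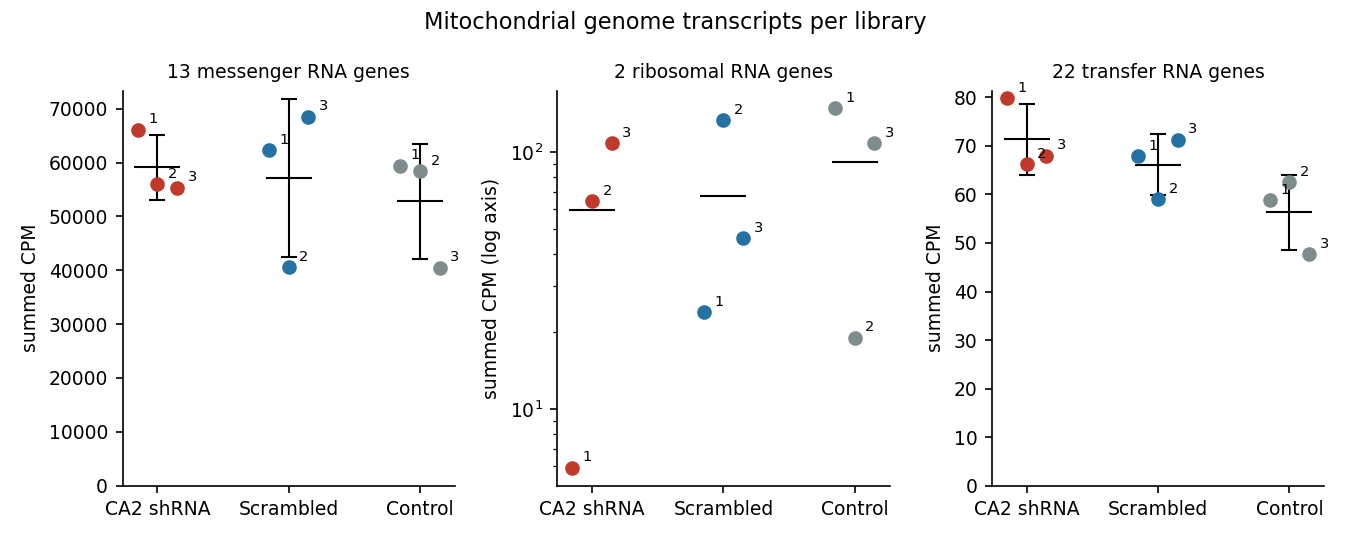
Summed CPM of the messenger, ribosomal and transfer RNA genes in each library, marked by replicate number, with the group mean as a line and 1 SD as a bar (no bar on the log axis of the ribosomal panel). Messenger RNA is lowest in Scrambled 2 and Control 3, ribosomal RNA spans 5.91 to 148 CPM, and transfer RNA stays between 47.7 and 79.8 CPM.

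Messenger RNAs were among the most counted transcripts of these cells. Of the 20 genes with the highest mean CPM 9 were mitochondrial, and MT-CO1, the catalytic subunit of complex IV, ranked second with 10036 CPM. Levels of different genes are compared per length, as RPKM, which is CPM per kilobase of gene length, over all 9 libraries. MT-CO2, which takes electrons from cytochrome c in complex IV, was highest at 8575 ± 1520 RPKM (SD, n = 9), followed by the complex I subunit MT-ND4 at 6982 ± 1276 and MT-CO1 at 6509 ± 1280. These stood in this order in 9 of 9 libraries. MT-ATP6, the proton-channel subunit of complex V, averaged 6066 ± 1132 RPKM and lay below MT-CO1 in 6 of 9 libraries, so this order did not hold beyond the spread. MT-CO3, the third complex IV subunit, averaged 4979 ± 901 RPKM, above MT-CYB, cytochrome b of complex III, at 4444 ± 878. MT-CYB exceeded the complex I subunit MT-ND1, at 4224 ± 752 RPKM, in 6 of 9 libraries. MT-ND5 averaged 3657 ± 674, MT-ND2 3441 ± 530 and MT-ND6 3380 ± 586 RPKM, and neighbours in this run kept their order in 6 of 9 libraries. MT-ND4L averaged 2700 ± 480 and MT-ND3 2589 ± 219 RPKM, in this order in 5 of 9 libraries.

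MT-ATP8, the small complex V subunit, stood far below all of these. It had 155, 94.9 and 125 RPKM in CA2 shRNA, 93.8, 75.3 and 104 RPKM in Scrambled, and 122, 125 and 98.4 RPKM in Control libraries. That was 1.84% ± 0.293 (SD, n = 9) of MT-ATP6, the gene with which it shares the bases printed above and, as is known, a single transcript. For MT-ND4L the share of its partner MT-ND4 was 38.7% ± 1.55. How reads over shared bases were assigned is not given in the sources used here, so levels of MT-ATP8 and MT-ND4L are uncertain. The same holds for strand: MT-ND6 stood at 92.7% ± 3.63 of its neighbour MT-ND5 per length, and reads from the opposite strand cannot be told apart from its own.

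**Figure D2:**
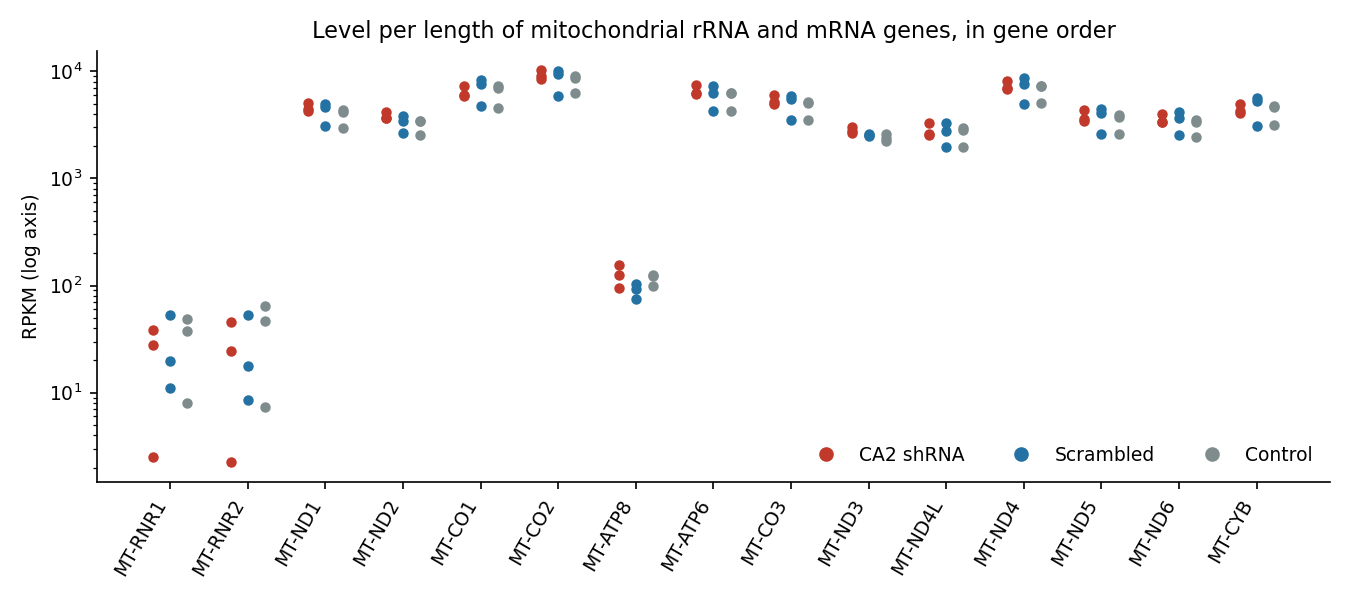
RPKM on a log axis of the 2 ribosomal and 13 messenger RNA genes in the order of the genome, with each point a library. Messenger RNAs other than MT-ATP8 lie at 1962 RPKM or more in every library, MT-ATP8 lies at 75.3 to 155 RPKM, and the ribosomal genes scatter from 2.25 to 64.9 RPKM.

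Nuclear copies with a mean of at least 2 CPM were MTND1P23, MTND2P28, MTCO1P12, MTCO2P12, MTATP6P1 and MTCO3P12, all on chromosome 1, 6 of 20 copies listed. MTATP6P1 held 461 to 891 CPM, which was 16.0 to 20.9% of MT-ATP6 in the same library, while the other 5 held 1.81% or less of their mitochondrial partners. Reads of such near-identical copies may be split between the nuclear and mitochondrial gene, or counted for neither. How they were treated is not given in the sources used here. Levels of MT-ATP6 and of the other genes with copies are therefore uncertain by an unknown amount.

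Against Scrambled cells, 1 of the 23 mitochondrial genes that passed the filter on low counts changed in CA2 shRNA cells, where 16.9% of all 19812 tested genes were called. The tested members were the 13 messenger RNAs, both ribosomal RNAs and 8 transfer RNAs, and the other 14 transfer RNAs had too few counts. The gene was MT-TP, the transfer RNA for proline, which is treated below. Median log2 change of the messenger RNAs was 0.13, against -0.03 over all tested genes, and 11 of 13 lay above 0. The highest was MT-ATP8 at 0.47 (SE 0.179, adjusted p = 0.115), whose RPKM in CA2 shRNA libraries overlapped those of Scrambled. The lowest was MT-CO1, with 7379, 5840 and 5989 RPKM in CA2 shRNA and 7542, 4764 and 8226 RPKM in Scrambled libraries. Its log2 change was -0.09 (SE 0.263, adjusted p = 0.873), inside the spread of the Scrambled libraries. Without Scrambled 2 and Control 3 the calls were different: 3 members passed, where 21.5% of all 19968 tested genes were called. MT-CO1 at -0.27 (adjusted p = 0.0261) and MT-CYB at -0.26 (adjusted p = 0.0189) were lower and MT-TP was higher, and the messenger RNA median was -0.05. The libraries left out were those lowest in summed mitochondrial messenger RNA.

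Against Control cells, 2 of 23 tested members changed in CA2 shRNA cells, both upward, where 14.7% of all tested genes were called. Apart from MT-TP this was MT-ND3, a small membrane subunit of complex I. MT-ND3 had 2648, 2780 and 2993 RPKM in CA2 shRNA, 2478, 2550 and 2604 RPKM in Scrambled, and 2236, 2626 and 2389 RPKM in Control libraries. In RPKM every CA2 shRNA library lay above the other 6, but after the TMM scaling that the test uses CA2 shRNA 1, at 911 CPM, lay below Control 2, at 917 CPM. The log2 change was 0.21 against Control (SE 0.0646, adjusted p = 0.0315) and 0.15 against Scrambled (adjusted p = 0.126). All 13 messenger RNAs had a log2 change above 0 against Control with a median of 0.21, against 0.00 over all tested genes, from MT-CO1 at 0.03 (SE 0.263, adjusted p = 0.969) to MT-ND2 at 0.30 (SE 0.157, adjusted p = 0.290). Without Control 3 alone the count was 8 of 13 and the median 0.06, and without Scrambled 2 and Control 3 they were 10 of 13 and 0.09. Both comparisons use the same 3 CA2 shRNA libraries, so they are not independent of each other.

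Scrambled cells did not differ detectably from Control cells in any tested member. No gene of 19812 passed with edgeR (0%), while 550 had an unadjusted p under 0.05, 3 of them members, and DESeq2 called 1 gene and no member. Here too most messenger RNAs leaned upward: 12 of 13 had a log2 change above 0 with a median of 0.11, against 0.00 over all tested genes. An upward lean was thus not particular to CA2 shRNA cells. The messenger RNA with the highest log2 change was MT-ND6 at 0.16 (SE 0.217) and the one with the lowest was MT-ATP8 at -0.34 (SE 0.178), each with an adjusted p of 0.9998.

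The balance among the mitochondrial messenger RNAs was examined next. Each gene's counts were taken as a percentage of the library's 13 messenger RNA genes, which removes the differing total. For 5 of the 13 genes the 3 CA2 shRNA libraries lay outside the range of the other 6, which was so for 8.36% of all tested genes when their counts were taken over the same total. For nuclear genes this ratio still carries the differing mitochondrial total, which is divided out of the 13 genes. These rates are therefore not like for like. MT-ATP6, MT-ND1 and MT-CO3 were above the range of the other 6, and MT-CO1 and MT-CYB were below. MT-CO1 made up 17.2, 16.1 and 16.7% in CA2 shRNA, 18.7, 18.1 and 18.5% in Scrambled, and 18.8, 18.5 and 17.4% in Control libraries. The nearest Control library, Control 3, was only slightly above the highest CA2 shRNA library. MT-CYB made up 8.63, 8.62 and 8.49% in CA2 shRNA, 9.57, 8.73 and 9.46% in Scrambled, and 9.14, 9.16 and 8.94% in Control libraries. Here the nearest library was Scrambled 2. MT-ATP6 made up 7.76, 7.51 and 7.75% in CA2 shRNA, 6.85, 7.09 and 7.21% in Scrambled, and 7.22, 7.25 and 7.24% in Control libraries. MT-ND1 made up 7.36, 7.61 and 7.44% in CA2 shRNA, 7.14, 7.20 and 6.89% in Scrambled, and 7.002, 6.87 and 6.95% in Control libraries. MT-CO3 made up 7.09, 7.01 and 7.36% in CA2 shRNA, 6.92, 6.82 and 6.72% in Scrambled, and 6.77, 6.84 and 6.75% in Control libraries. For these last 3 genes the means of CA2 shRNA and of either control group were 0.334 to 0.620 percentage points apart, beside SDs between libraries of a group of 0.0150 to 0.186 percentage points. For MT-CO1 and MT-CYB the CA2 shRNA means were lower by 0.497 to 1.75 percentage points, beside SDs of 0.0777 to 0.743. All 5 genes were picked because their shares did not overlap, so gaps beyond the SDs partly follow from that choice.

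**Figure D3:**
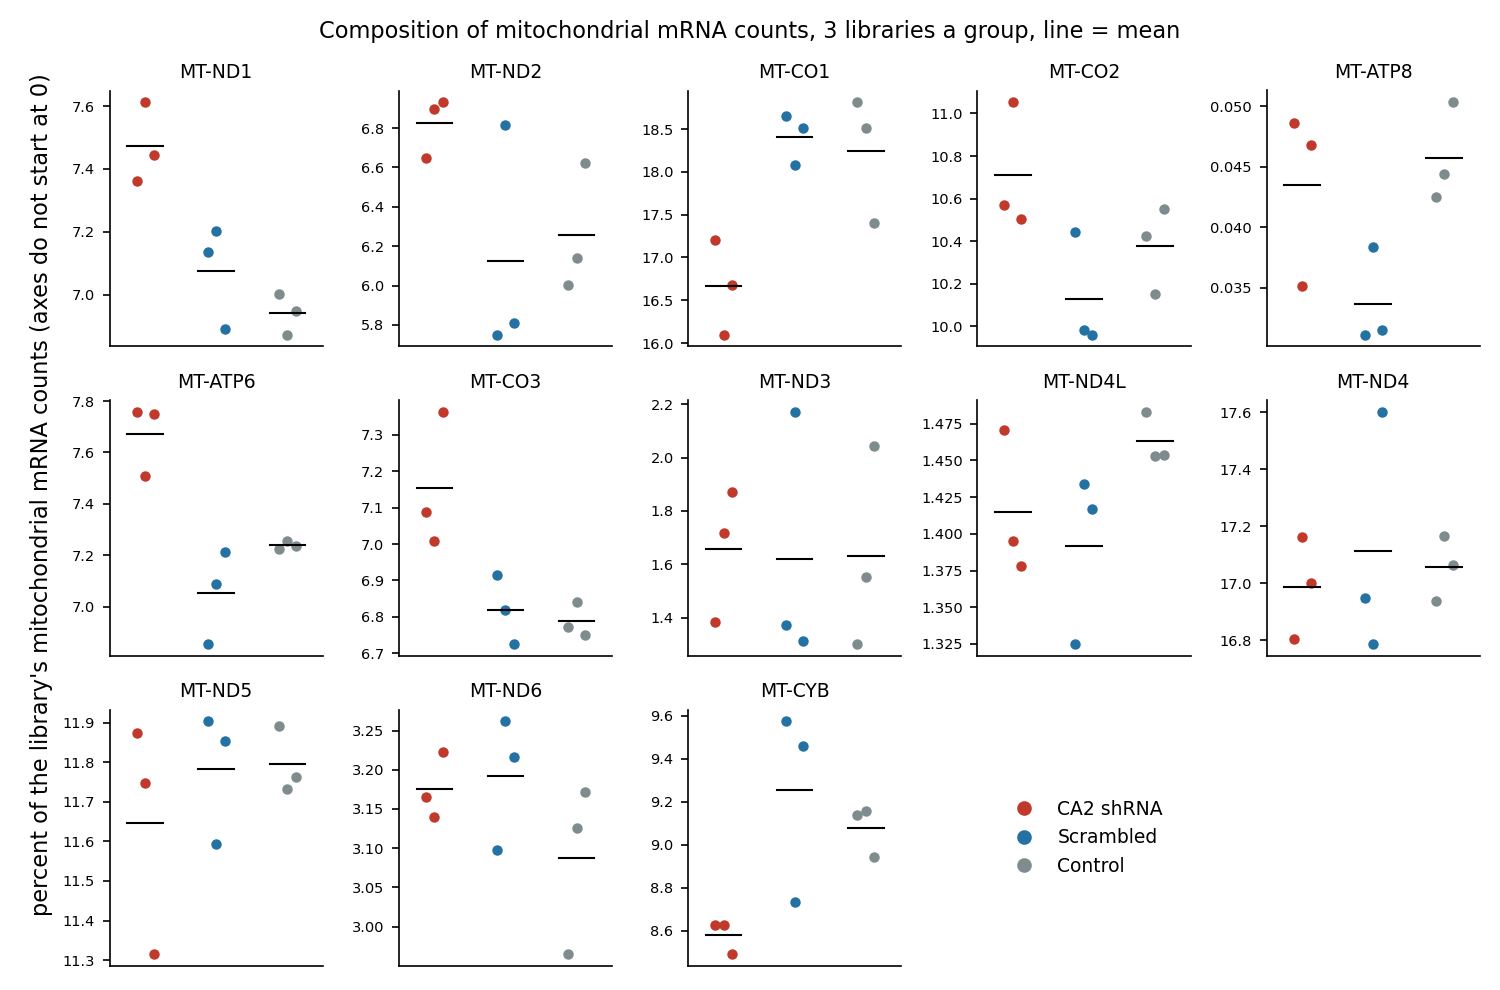
Share of each mitochondrial messenger RNA gene in the library's mitochondrial messenger RNA counts, in percent, 1 panel a gene with its own axis that does not start at 0, with each point a library and a line at the group mean. In the MT-ND1, MT-ATP6 and MT-CO3 panels the CA2 shRNA points lie above all others, and in the MT-CO1 and MT-CYB panels they lie below.

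Counted by comparison, 6 of 13 shares did not overlap between CA2 shRNA and Scrambled libraries, 4 higher and 2 lower. Of all 19812 tested genes 12.5% had counts, relative to the mitochondrial messenger RNA total, that did not overlap between these groups. Between CA2 shRNA and Control it was also 6 of 13, 4 higher and 2 lower, against 19.3% of all tested genes. Between Scrambled and Control it was 3 of 13, all lower in Scrambled (MT-ATP8, MT-ATP6 and MT-ND4L), against 1.99% of all tested genes. In all of these rates over tested genes, nuclear genes carry the differing mitochondrial total between libraries. An excess of the 13 shares over them therefore cannot be read as a result about these genes. Each non-overlapping share has a two-sided exact permutation p of 0.10, the smallest this design allows, and 0.26 after Benjamini-Hochberg adjustment over 39 tests, so none passed. Shares of a fixed total are tied to each other, since a lower MT-CO1 share raises the rest. When the mitochondrial messenger RNA total served as library size in edgeR, none of 23 members passed in any comparison, and none had an unadjusted p under 0.05. Calls over all genes fell in that fit too, from 3348 to 139 against Scrambled and from 2906 to 246 against Control. The lack of member calls there therefore does not decide whether the shares differed. The ratio of MT-CO1 to MT-ATP6 counts, formed from genes chosen after their shares had been seen and given as a description, was 2.22, 2.14 and 2.15 in CA2 shRNA, 2.72, 2.55 and 2.57 in Scrambled, and 2.60, 2.55 and 2.40 in Control libraries. With counts of the nuclear copies added, which cannot restore reads counted for neither gene, the 5 shares remained outside the range of either control group. With MT-ND4 counts as the denominator they did so too, except that MT-CO1 overlapped between CA2 shRNA and Control libraries.

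MT-ND3 behaved apart from the other messenger RNAs across libraries. Its coefficient of variation within groups averaged 5.85%, against 13.8% for MT-ND2 and 17.4 to 21.0% for the other 11 messenger RNAs. In Scrambled 2 the level of MT-ND3 was 1.004 times the mean of the other 2 Scrambled libraries, while the median messenger RNA stood at 0.625 times. In Control 3 MT-ND3 was at 0.984 times the mean of the other 2 Control libraries and the median messenger RNA at 0.688 times. As a share of mitochondrial messenger RNA, MT-ND3 made up 1.38, 1.72 and 1.87% in CA2 shRNA, 1.38, 2.17 and 1.31% in Scrambled, and 1.30, 1.55 and 2.04% in Control libraries. MT-ATP8 and MT-ND2 lay between MT-ND3 and the rest, at 0.760 and 0.732 times in Scrambled 2 and at 0.797 and 0.750 times in Control 3. As a share MT-ND2 made up 6.65, 6.90 and 6.93% in CA2 shRNA, 5.75, 6.81 and 5.81% in Scrambled, and 6.005, 6.14 and 6.62% in Control libraries. Relative to MT-CO3, which lies next to it upstream with only a transfer RNA gene between, MT-ND3 ranged per length from 44.3 to 57.6% in CA2 shRNA, 44.3 to 72.1% in Scrambled and 43.5 to 68.6% in Control libraries.

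**Figure D4:**
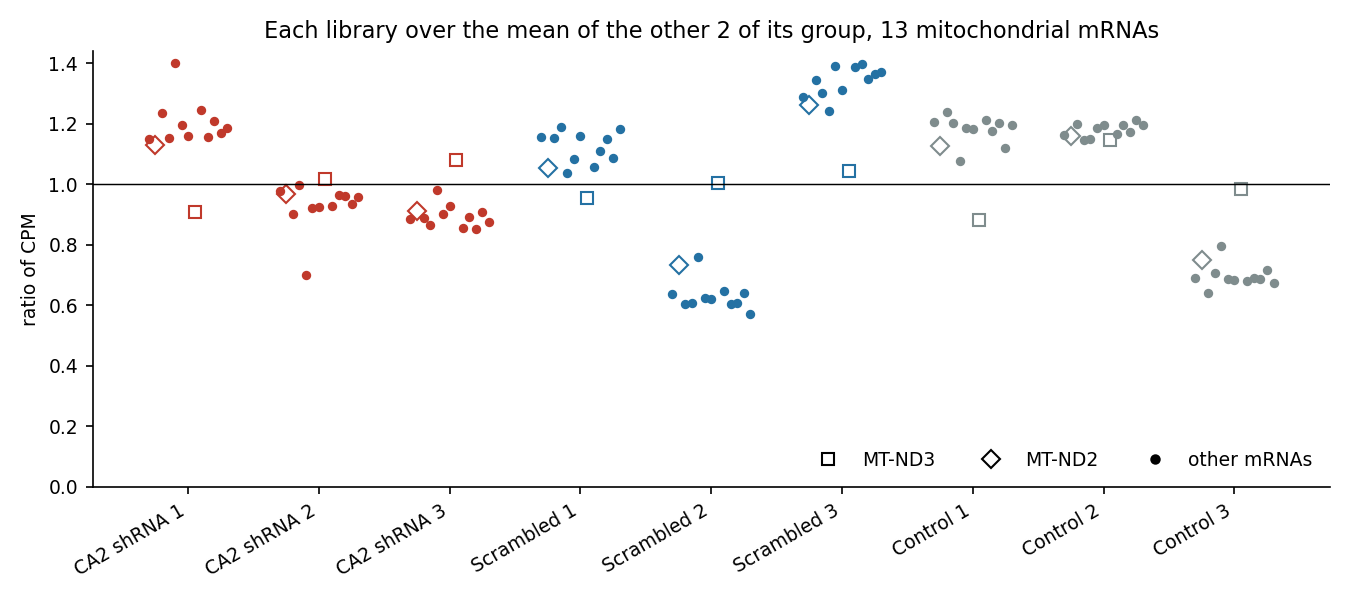
CPM of each of the 13 mitochondrial messenger RNAs in a library divided by the mean of the other 2 libraries of its group, with the line at 1. In Scrambled 2 and Control 3 most genes lie near their medians of 0.625 and 0.688, while MT-ND3 (squares) lies at 1.004 and 0.984 and MT-ND2 (diamonds) in between at 0.732 and 0.750, as is the unmarked MT-ATP8 at 0.760 and 0.797.

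Ribosomal RNAs were low in these libraries and varied more than any other mitochondrial transcript class. MT-RNR1 encodes the small-subunit and MT-RNR2 the large-subunit ribosomal RNA, both normally abundant. The labels' protocol names QIAGEN FastSelect, a reagent used to lower ribosomal RNA reads. Their summed level was 5.91, 64.4 and 108 CPM in CA2 shRNA, 23.9, 133 and 46.1 CPM in the Scrambled libraries, and 148, 19.0 and 108 CPM in Control libraries. High and low libraries occurred in every group, and the highest stood 25.0-fold above the lowest. Messenger RNA counts exceeded ribosomal RNA counts by 11190-fold in CA2 shRNA 1 and by 307-fold in Scrambled 2, the extremes of the 9 libraries. The 2 genes moved together: per length, MT-RNR2 was 0.874 to 1.19 times MT-RNR1 in CA2 shRNA, 0.785 to 1.002 times in Scrambled and 0.910 to 1.33 times in Control libraries. MT-RNR1 had a log2 change of -0.26 against Scrambled (SE 1.04, adjusted p = 0.910) and -0.45 against Control (SE 1.03, adjusted p = 0.847) in CA2 shRNA cells. For MT-RNR2 it was -0.11 (SE 1.18, adjusted p = 0.967) and -0.70 (SE 1.17, adjusted p = 0.784). Between Scrambled and Control it was -0.20 (SE 1.01) for MT-RNR1 and -0.59 (SE 1.15) for MT-RNR2, each with an adjusted p of 0.9998. All of these standard errors were larger than the changes beside them, so no difference in mitochondrial ribosomal RNA was detectable at this spread.

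Transfer RNA genes held few counts, and the 4 printed above held most of them. MT-TP had 5250 counts over the 9 libraries, MT-TN 3136, MT-TC 2612 and MT-TY 1966, out of 14107 for all 22 genes. In single libraries these 4 held 89.6 to 93.6% of transfer RNA counts. The other 18 genes had at most 50 counts in any library, reached by MT-TE, the transfer RNA for glutamate. All 14 genes on the plus strand had 36 counts or fewer per library. MT-TV, which lies between MT-RNR1 and MT-RNR2, had no count in any library, which allows up to 0.0876 to 0.177 CPM by library. Genes on the minus strand numbered 8, and of the remaining 4 MT-TQ, MT-TA and MT-TS1 had 8 counts or fewer per library and MT-TE 15 to 50. MT-TN, MT-TC and MT-TY lie in 1 cluster between MT-ND2 and MT-CO1, and MT-TP lies beyond MT-CYB and MT-TT. Mature transfer RNAs are short and folded, and these counts cannot be told apart from those of uncut precursors or of the opposite strand.

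**Figure D5:**
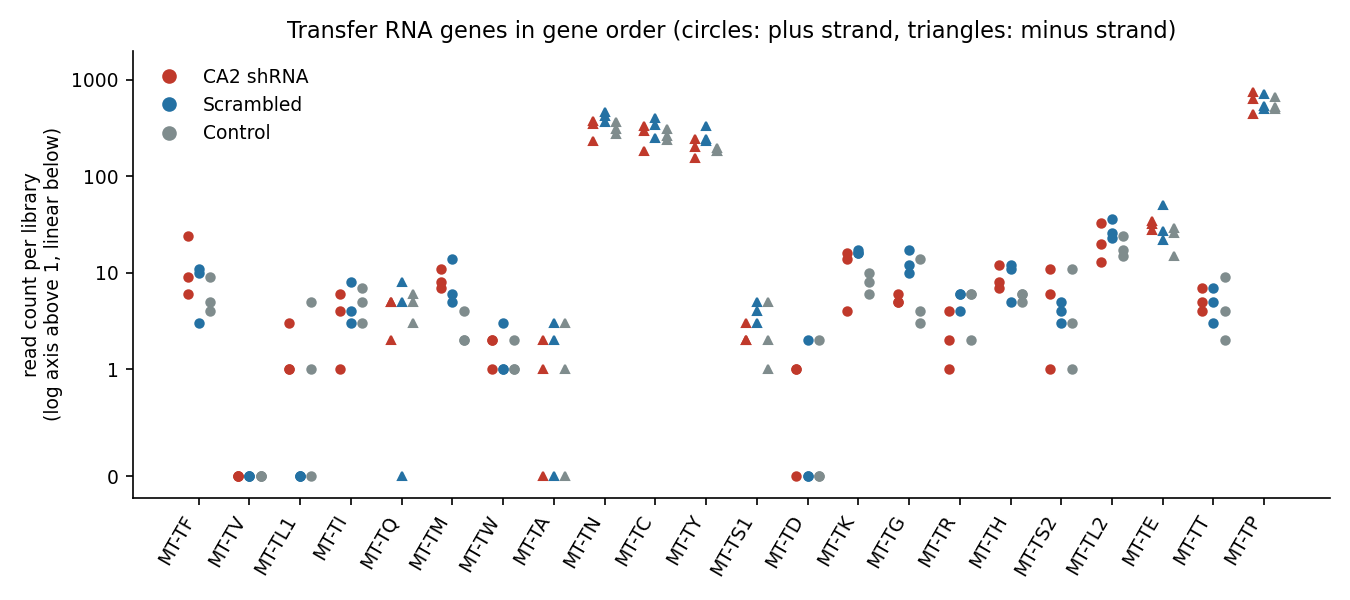
Read counts of the 22 mitochondrial transfer RNA genes in the order of the genome, with each point a library, circles for the plus and triangles for the minus strand, on an axis that is logarithmic above 1 and linear below. MT-TN, MT-TC, MT-TY and MT-TP hold 156 to 746 counts a library and all others 50 or fewer.

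MT-TP was the member called in both CA2 shRNA comparisons. It had 628, 438 and 746 counts in CA2 shRNA, 533, 498 and 718 counts in Scrambled, and 525, 494 and 670 counts in Control libraries. As RPKM that was 463, 379 and 405 in CA2 shRNA, 351, 271 and 357 in Scrambled, and 325, 351 and 288 in Control libraries. All 3 CA2 shRNA libraries lay above the other 6. The log2 change was 0.36 against Scrambled (SE 0.109, adjusted p = 0.0329) and 0.38 against Control (SE 0.110, adjusted p = 0.0291). Without Scrambled 2 and Control 3 it was 0.26 (adjusted p = 0.0403) and 0.33 (adjusted p = 0.0152). The call against Scrambled was lost without CA2 shRNA 1, CA2 shRNA 2 or Scrambled 2 (adjusted p = 0.104, 0.0684 and 0.0546). Against Control it was lost without CA2 shRNA 1, CA2 shRNA 2, Control 1 or Control 3 (adjusted p = 0.0958, 0.0650, 0.0724 and 0.127). MT-ND3 against Control was lost without CA2 shRNA 2, CA2 shRNA 3, Control 1 or Control 3 (adjusted p = 0.118, 0.0811, 0.147 and 0.0891).

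Summed over all 22 genes, transfer RNA stood at 79.8, 66.2 and 68.0 CPM in CA2 shRNA, 68.0, 59.1 and 71.3 CPM in the Scrambled libraries, and 58.8, 62.5 and 47.7 CPM in Control libraries. CA2 shRNA libraries did not overlap with Control but did with Scrambled. The two-sided exact permutation p was 0.10 against Control, the smallest possible, and 0.50 against Scrambled, both 0.90 after adjustment over 12 tests. MT-TN, MT-TC and MT-TY were not past the threshold in any comparison. They had log2 changes of -0.07, 0.02 and -0.10 against Scrambled, and of 0.28, 0.26 and 0.35 against Control, in CA2 shRNA cells.

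The nuclear genes that maintain and express the mitochondrial genome were described by lists, whose counts stand beside 16.9% of all tested genes called against Scrambled and 14.7% against Control. These shares were 21.5% and 16.1% without Scrambled 2 and Control 3. Values are TMM-scaled CPM with SD, n = 3. Of 26 genes of mitochondrial transcription and genome maintenance, 2 rose and 3 fell in CA2 shRNA against Scrambled cells, and none rose and 3 fell against Control cells. Without Scrambled 2 and Control 3, 4 rose and 3 fell against Scrambled, and 2 rose, TFAM and DNA2, and 2 fell against Control. The median log2 change of the list was -0.02 against Scrambled and -0.01 against Control. TFAM, which packages mitochondrial DNA and starts its transcription, had 79.9 ± 5.99 CPM in CA2 shRNA, 59.7 ± 10.3 in Scrambled and 68.8 ± 6.88 in Control libraries. Its log2 change was 0.42 against Scrambled (SE 0.118, adjusted p = 0.0315) and 0.22 against Control (SE 0.117, adjusted p = 0.281), and 0.31 against Control without Scrambled 2 and Control 3 (adjusted p = 0.0141). DNA2, a nuclease-helicase named here after its value was seen, was the other gene that rose against Scrambled. MGME1, a nuclease of mitochondrial DNA, had 36.6 ± 0.866 CPM in CA2 shRNA, 53.9 ± 1.07 in Scrambled and 55.8 ± 2.90 in Control libraries. Its log2 change was -0.56 against Scrambled (adjusted p = 8.36e-06) and -0.60 against Control (adjusted p = 3.24e-06). LIG3, the DNA ligase of mitochondria, fell by 0.36 and by 0.35 (adjusted p = 0.00101 and 0.00127), and SUCLA2, a succinyl-CoA synthetase subunit whose loss depletes mitochondrial DNA, fell by 0.28 and by 0.31 (adjusted p = 0.0480 and 0.0314). Both SUCLA2 calls were lost without Scrambled 2 and Control 3 (-0.18 and -0.21, adjusted p = 0.210 and 0.175).

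Of 24 genes of mitochondrial RNA processing and turnover, 3 rose and 1 fell against Scrambled, and 1 rose and 1 fell against Control. HSD17B10, a subunit of the mitochondrial RNase P that cuts precursors before transfer RNAs, rose by a log2 change of 0.23 against Scrambled (adjusted p = 0.0221), and so did FASTK, which stabilises MT-ND6 messenger RNA (0.23, adjusted p = 0.0488). FASTKD5, needed for messenger RNAs not flanked by transfer RNAs, rose by 0.19 against Scrambled (adjusted p = 0.0494), while REXO2, which degrades short RNA fragments, fell by 0.26 against Scrambled and by 0.27 against Control (adjusted p = 0.0203 and 0.0211). TBRG4, another FASTK-family protein, rose by 0.19 against Control (adjusted p = 0.0484). Without Scrambled 2 and Control 3, 7 rose and none fell against Scrambled and 4 rose and none fell against Control, so this list's counts depended on those libraries. The calls lost there were FASTK against Scrambled (adjusted p = 0.0676), TBRG4 against Control (adjusted p = 0.0657) and REXO2 in both comparisons (adjusted p = 0.143 and 0.0698). Of 26 genes of mitochondrial RNA modification, 2 rose against Scrambled and 4 against Control, and none fell. NSUN2 and YRDC rose in both, NSUN2 by 0.20 and 0.21 and YRDC by 0.29 and 0.37, while RPUSD4 (0.43, adjusted p = 0.0127) and TRUB2 (0.20, adjusted p = 0.0457), which make pseudouridine, rose against Control. Both NSUN2 and YRDC also act on RNA of the cytosol.

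Of 22 mitochondrial aminoacyl-tRNA synthetases, which charge transfer RNAs, 2 rose and 1 fell against Scrambled, and the counts against Control are not reported here. KARS1, for lysine, rose by 0.19 against Scrambled and 0.18 against Control (adjusted p = 0.0395 and 0.0464), LARS2, for leucine, rose by 0.23 against Scrambled (adjusted p = 0.0176), and GARS1, for glycine, fell by 0.21 against Scrambled (adjusted p = 0.0465). The fall of GARS1 was lost without Scrambled 2 and Control 3 (-0.16, adjusted p = 0.133). KARS1 and GARS1 serve the cytosol as well. Of 14 mitochondrial translation factors, the elongation factor GFM1 rose by 0.30 and 0.27 (adjusted p = 0.00467 and 0.0120). The ribosome recycling factor MRRF fell by 0.51 and by 0.49 (adjusted p = 6.51e-05 and 9.45e-05), to 32.9 ± 1.39 CPM in CA2 shRNA, against 46.8 ± 3.20 in Scrambled and 46.3 ± 1.75 in Control libraries. The other 12 factors did not pass in either comparison. Without Scrambled 2 and Control 3 MRRF and GFM1 remained past the threshold in both comparisons, and GUF1 (0.31, adjusted p = 0.0213) and MTRF1L (0.30, adjusted p = 0.0186), named after their values were seen, passed against Scrambled as well.

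Of 12 tested nuclear regulators of mitochondrial genes, 2 rose and 2 fell in each comparison. TFEB, a transcription factor of lysosomal and mitochondrial genes, rose to 13.8 ± 0.757 CPM in CA2 shRNA, against 8.57 ± 0.801 in Scrambled and 8.96 ± 0.786 in Control libraries (log2 change 0.69 and 0.62, adjusted p = 2.21e-04 and 5.77e-04). The transcription factor YY1 and the coregulator HCFC1 fell in both, YY1 by 0.26 and by 0.31 and HCFC1 by 0.19 and by 0.26. TFE3 rose by 0.19 against Scrambled (adjusted p = 0.0404) and the coactivator PPARGC1B by 0.43 against Control (adjusted p = 0.0269). Once Scrambled 2 and Control 3 were left out, the calls of HCFC1 (-0.15, adjusted p = 0.109) and TFE3 (adjusted p = 0.0660) against Scrambled and of PPARGC1B against Control (adjusted p = 0.0616) were lost. PPARGC1B against Scrambled (adjusted p = 0.0447) and TFE3 against Control (adjusted p = 0.0424) were gained there. Among nuclear partners of the mitochondrially encoded subunits of complexes III, IV and V, no gene fell. Of 9 complex III genes 2 rose against Scrambled, cytochrome c1, CYC1 (0.22, adjusted p = 0.0497) and the core protein UQCRC2 (0.19, adjusted p = 0.0299), and 1 against Control, UQCRC2 (0.19, adjusted p = 0.0344). Of 11 complex IV genes COX7B rose against Scrambled (0.24, adjusted p = 0.0443) and none against Control. Of 17 complex V genes none passed against Scrambled and the stalk subunit ATP5PO rose against Control (0.33, adjusted p = 0.0286). Counts of complex III, IV and V genes that rose were 5, 4 and 3 against Scrambled and 4, 3 and 2 against Control once Scrambled 2 and Control 3 were left out, where 21.5% and 16.1% of all tested genes were called.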

How the data were processed

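Total RNA from C28/I2 cells was sequenced as 9 libraries. The authors deposited a read count per gene for each library; per the file headers, columns of CPM and RPKM stand beside it. Recomputing both from the counts and the given gene lengths returned the deposited CPM and RPKM values. Per the submitters' processing notes the build was GRCh38 and the tools were STAR 2.5.1a, featureCounts 1.4.6-p5, Subread and bcl2fastq. Not given in the sources used here: annotation release, strand setting, read layout and what was done with multi-mapping reads.

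Symbols were matched for 60401 gene identifiers in a reference table and for 246 more in GENCODE 29, in which all 37 members had the same coordinates. Genes passing filterByExpr were tested on counts with edgeR 4.0.16 (R 4.3.3): TMM scaling, a robust quasi-likelihood fit over all 9 libraries with 6 residual degrees of freedom, and Benjamini-Hochberg adjustment over 19812 genes at 0.05. The biological coefficient of variation was 7.94%. On simulated counts of 19631 genes, 88 of 100 genes changed 1.5-fold and 100 of 100 changed 2-fold were recovered for CA2 shRNA against Scrambled, with 14 false calls. The simulation gave every gene this same coefficient of variation and did not set any library apart. Within groups, mitochondrial messenger RNAs varied on average by 5.85 to 21.0% and the ribosomal RNAs by 75.3 and 84.0%. The recovery therefore does not carry over to the members. Shares were compared by exact permutation (SciPy 1.17.1). Alternatives were DESeq2 1.42.0, other scalings and filters, a replicate block, 2-group fits and leaving out libraries. No libraries were duplicates: the lowest chi-square between any pair was 3.72 per gene.

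Log2 changes are printed for members past the threshold, for the messenger RNAs with the highest and lowest change, for both ribosomal RNAs, and for up to 4 called genes of each list. MT-CYB without both libraries that stand apart, and MT-TN, MT-TC and MT-TY, were named after their values were seen. Members and lists were chosen with earlier results of these data known. Results for a few listed genes are not reported here.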

Additional observations from a re-analysis of the deposited data

How the results depend on the processing

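Counts of mitochondrial genes past the threshold were small and moved with the setting. Percentages in brackets are the share of all tested genes called in the same setting. For CA2 shRNA against Scrambled 1 of 23 passed (16.9%). It was 0 of 23 with upper-quartile factors (16.9%) and 0 of 23 with the mitochondrial messenger RNA total as library size (0.702%). It was 3 of 36 without a filter (8.32%), 2 of 23 with DESeq2 (17%) and 3 without Control 3 and Scrambled 2 (21.5%). Leaving out each replicate in turn gave 0 to 1. For CA2 shRNA against Control 2 of 23 passed (14.7%), with 0 of 23 under the mitochondrial messenger RNA total (1.24%) and 0 to 5 when each replicate was left out. The highest, 5 of 26 (18.1%), came without Scrambled replicate 2. Without a filter and with DESeq2, the added call against Scrambled included MT-ATP8 (log2 0.47 and 0.48). Over all genes the counts were 3348 and 2906, against 139 and 246 with the mitochondrial messenger RNA total as library size, and 2059 against Scrambled without Scrambled replicate 3; the cause was not tested. The share of rises among calls against Scrambled was 1589 of 3348, against 2091 of 3666 when nuclear genes set the scale and 2357 of 4011 without Scrambled replicate 2.

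Signs that turned belonged to genes with no call over all 9 libraries. MT-CO1 against Control was -0.13 with the mitochondrial messenger RNA total and -0.13 without Control 3 and Scrambled 2, and -0.16 to 0.14 when each replicate was left out. MT-CO1 against Scrambled ranged from -0.27 to 0.0685, MT-RNR1 from -0.85 to 0.62 and MT-RNR2 from -0.96 to 0.92, with 0.62 and 0.92 for the ribosomal pair without Control 3 and Scrambled 2. MT-RNR1 against Control ranged from -1.05 to 0.10, MT-RNR1 in Scrambled against Control from -1.04 to 0.22 and MT-ND6 there from -0.00911 to 0.34. The 5 messenger RNA shares kept their sign under each alternative tried for them. Same-numbered libraries deviated together by correlations of -0.185 to 0.105, so no pairing by number was seen. This cannot exclude pairing, since libraries of different number were not compared. With a replicate block 1, 2 and 0 of 23 members passed in the 3 comparisons, where 17.3, 14.9 and 0% of all tested genes were called. The 14 untested transfer RNAs did not pass the filter on low counts, and the reason for their low counts was not tested.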
